A study of Mus musculus with 24 samples.

Results

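The livers of mice fed a cottonseed oil-enriched diet (CSO) were compared with those of mice fed an olive oil-enriched diet (OO), gene by gene. The comparison uses 12 libraries, 6 CSO and 6 OO, of the 23 in the deposited count table (24 samples are labelled), and all genes of that table. All mice were wild-type C57BL/6 males, an inbred laboratory strain, fed for 6 weeks, and the study also fed a safflower oil-enriched diet (SFO) and chow. The labels give neither the age of the mice nor the amount of oil in the diets. RNA was isolated from whole liver, and libraries were made with the QuantSeq kit, which sequences a tag at the 3′ end of each messenger RNA. The 4 diets were fitted together so that they share 1 estimate of the spread. Every fold change is CSO over OO on the log2 scale, and every level is in CPM, the share of a library's counts on a common scale after TMM scaling, edgeR's correction for differences in library composition. A gene is said to have risen or fallen in CSO livers where edgeR's quasi-likelihood test gave a Benjamini-Hochberg adjusted p under 0.05. The SE of a fold change was worked out from the fold change and the F statistic of that test. The labels do not tie libraries to separate cages or sampling days. Each p-value therefore reflects only how far the 23 libraries of the 4 diets scatter, part of which may be technical.

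Cottonseed oil is rich in linoleic and palmitic acids and carries cyclopropene fatty acids, while olive oil is mainly oleic acid. In the liver, fatty acids bind the nuclear receptor PPAR alpha, which raises the genes of peroxisomal and microsomal fatty acid oxidation, whereas the transcription factors SREBP-1c and ChREBP raise the genes of fatty acid synthesis. The liver also turns cholesterol into bile acids, stores glucose as glycogen and makes most plasma proteins, and many of these functions follow the circadian clock.

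Livers differed in 130 of 11971 tested genes (1.09%), of which 30 were higher (0.251%) and 100 lower (0.835%) in CSO. The genes that rose had a median log2 fold change of 1.80, those that fell one of -1.05, and all tested genes one of -0.08. In 57 of the 130 genes the 6 CSO libraries did not overlap the 6 OO libraries, 18 of them higher and 39 lower in CSO, while 172 of all tested genes (1.44%) did not overlap, 96 of them higher (0.802%) and 76 lower (0.635%) in CSO. With library totals in place of TMM scaling, 83 genes passed the test, 49 higher and 34 lower, against 30 higher and 100 lower with TMM, and the median of all genes moved to 0.08. All 130 genes kept their sign under each of 26 other settings of the test in which they were tested. Leaving out 1 library in turn left between 62 genes (without CSO 1) and 260 genes (without OO 5), with 74 without CSO 4 and 70 without CSO 6.

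**Figure D1:**
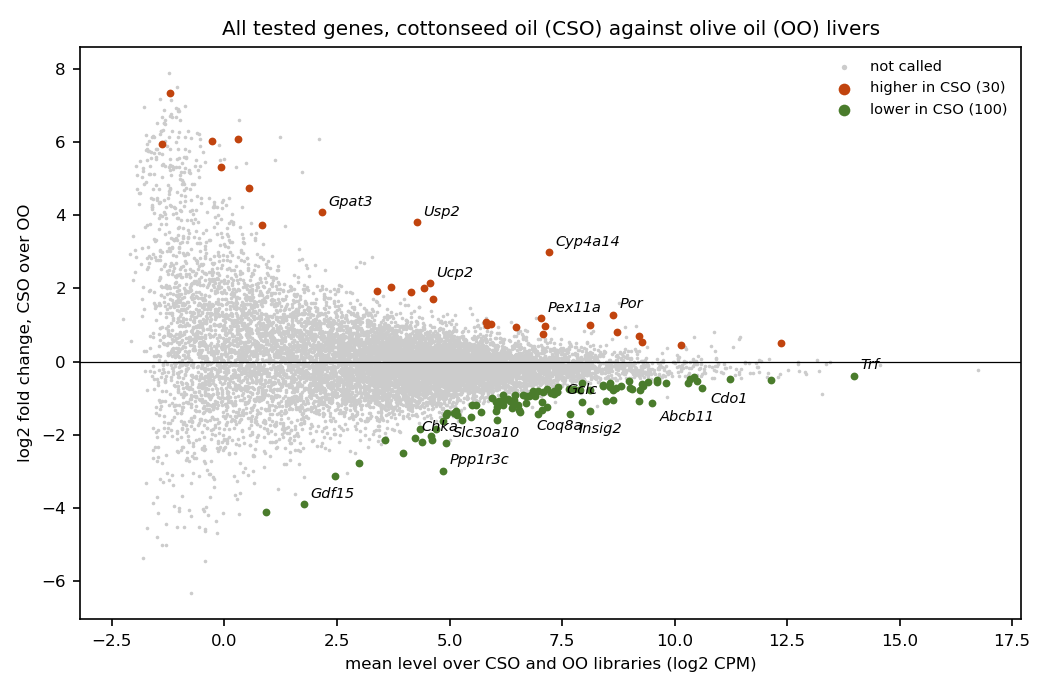
Each point is 1 of the 11971 tested genes, with its mean level over the CSO and OO libraries (log2 CPM) on the x axis and its log2 fold change, CSO over OO, on the y axis. Orange-red points mark the 30 genes that rose in CSO livers and green points the 100 that fell. The median mean level was 5.23 log2 CPM for the genes that rose, 6.88 for those that fell and 3.84 for all.

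The other diets place the difference. Among the 100 genes that fell in CSO, the OO mean was the highest of the 4 diets in 93 and the CSO mean the lowest in 80, and both held for 74. Among the 30 that rose, the CSO mean was the highest in 23 and the OO mean the lowest in 20, with both in 14. The choice of called genes fixes part of this order. Over all tested genes with a negative fold change, the OO mean was the highest in 64.5% and the CSO mean the lowest in 42.2%; with a positive one, the CSO mean was the highest in 38.8% and the OO mean the lowest in 62.6%.

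The libraries were not alike in ways that the diet labels do not record. Totals lay between 8032081 and 13973380 counts in CSO and between 7907040 and 11173505 in OO. OO libraries varied more than CSO libraries, with a common biological coefficient of variation of 0.617 in CSO and 0.975 in OO, and OO 3 stood furthest apart, with a first principal component score of 169 against -3.18 to 60.9 in the other OO libraries. TMM factors were 0.967 to 1.11 in CSO and 0.811 to 1.03 in OO. Without CSO 1, which holds skeletal muscle transcripts, and OO 3 together, 57 genes passed the test, 17 higher and 40 lower. Hepatocyte markers such as Alb were abundant in every library, summing to 116175 to 163087 CPM in CSO and 152591 to 202231 CPM in OO. Of the 8, 1 (Trf) fell, against 0.835% of all tested genes, and none did with library totals. Negative fold changes were found for 7 of the 8, and 5 were lower with an unadjusted p under 0.05. Over all 11971 tested genes, 1764 had such a p in either direction.

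Of the 130 genes, 15 passed the test under all 26 other settings apart from a minimum fold change, which span scalings, filters, other tests, a circadian covariate and each library left out. The 3 that rose were Por, Pex11a and Retsat, and the 12 that fell were Cdo1, Gclc, Hsd3b7, Atf5, Abcb11, Enpp3, Stra6l, Coq8a, Nr1d1, Insig2, Slc30a10 and Ppp1r3c. In 12 of these 15 no CSO library overlapped an OO library, and Enpp3, Nr1d1 and Ppp1r3c were the exceptions. Retsat, Enpp3 and Stra6l were chosen for naming after their values were seen.

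**Figure D2:**
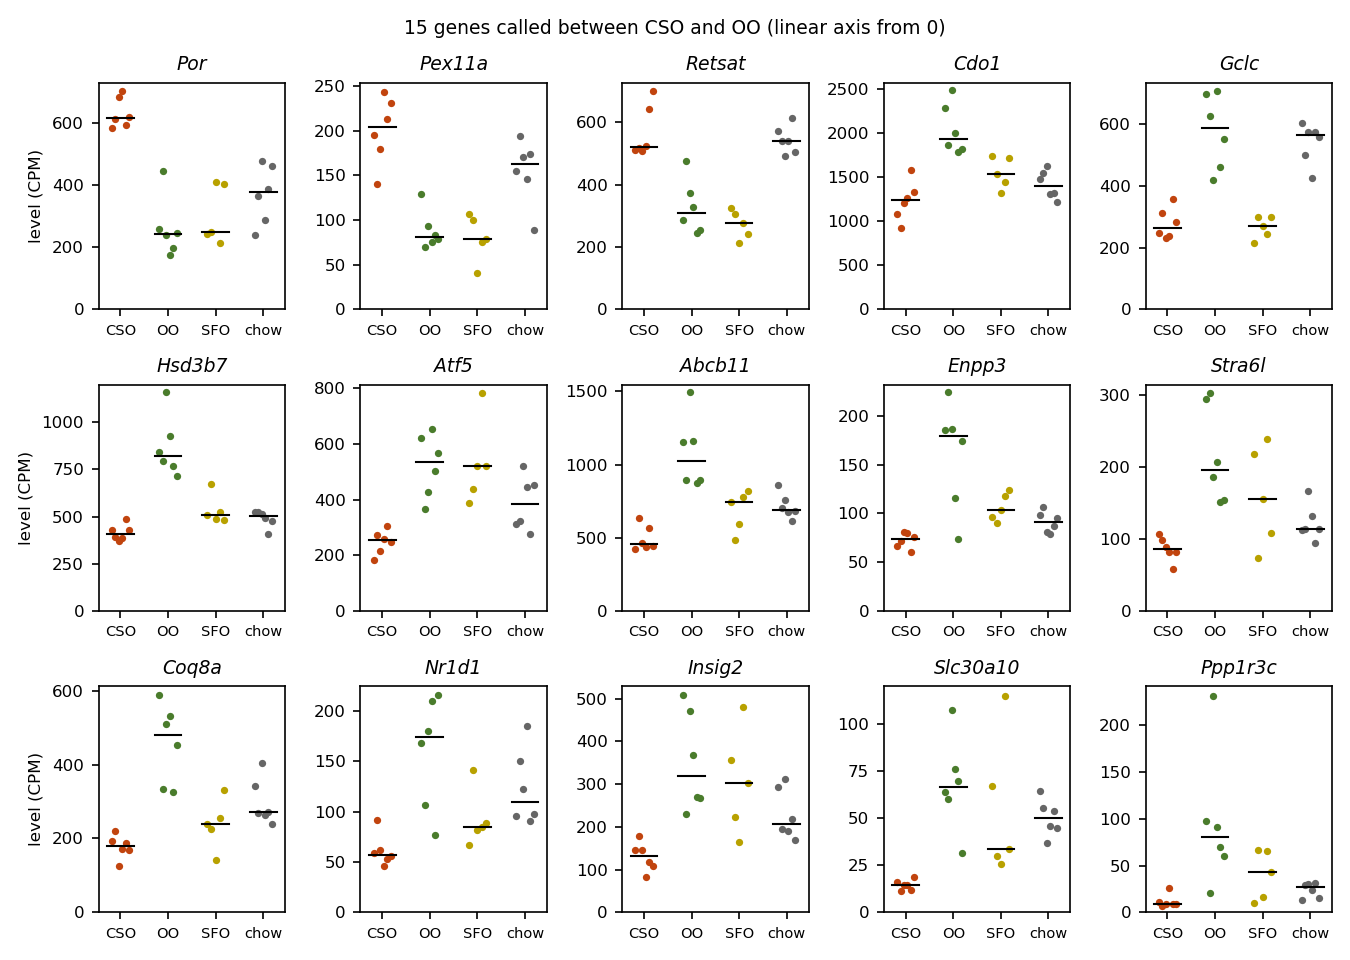
Levels (CPM, linear axis from 0) of the 15 genes that passed the test under all 26 other settings apart from a minimum fold change, by diet, ordered by fold change. Points are single libraries and bars are medians, with 6 libraries for CSO, OO and chow and 5 for SFO. CSO points lie above OO points for Por, Pex11a and Retsat and below or at the lower edge of the OO points for the other 12 genes.

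Abcb11, Hsd3b7 and Insig2, of bile acid transport, bile acid synthesis and sterol sensing, fell in CSO livers and were among the 10 genes with the smallest p of all. The promoters of 3 of these 10 genes (Abcb11, Coq8a and Ppp1r3c) are shown because they hold one of 2 motifs that were searched on both strands: AGGTCA, the half-site of nuclear receptors such as PPAR alpha and the bile acid receptor, and CACGTG, the E-box bound by clock factors and ChREBP. Windows of 300 bases (250 before to 50 after the start) were listed for 8 of the 10. Sequences are from RefSeq on build GRCm38.p6, minus strand, written 5′ to 3′ with the motif in capitals on the strand shown (TGACCT is AGGTCA read from the other strand). Abcb11 is at chr2:69342567-69342866, Coq8a at chr1:180193436-180193735 and Ppp1r3c at chr19:36736555-36736854.
Abcb11: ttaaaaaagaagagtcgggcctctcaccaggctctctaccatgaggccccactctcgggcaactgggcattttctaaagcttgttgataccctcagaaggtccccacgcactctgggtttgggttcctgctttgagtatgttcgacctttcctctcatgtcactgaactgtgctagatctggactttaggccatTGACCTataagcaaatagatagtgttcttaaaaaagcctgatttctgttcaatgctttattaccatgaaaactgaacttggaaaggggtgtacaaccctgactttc
Coq8a: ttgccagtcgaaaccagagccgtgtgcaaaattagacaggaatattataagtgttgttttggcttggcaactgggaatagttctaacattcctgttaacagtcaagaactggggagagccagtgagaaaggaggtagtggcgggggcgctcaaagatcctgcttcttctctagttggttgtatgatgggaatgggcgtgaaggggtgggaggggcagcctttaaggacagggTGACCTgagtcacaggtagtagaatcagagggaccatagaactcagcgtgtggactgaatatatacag
Ppp1r3c: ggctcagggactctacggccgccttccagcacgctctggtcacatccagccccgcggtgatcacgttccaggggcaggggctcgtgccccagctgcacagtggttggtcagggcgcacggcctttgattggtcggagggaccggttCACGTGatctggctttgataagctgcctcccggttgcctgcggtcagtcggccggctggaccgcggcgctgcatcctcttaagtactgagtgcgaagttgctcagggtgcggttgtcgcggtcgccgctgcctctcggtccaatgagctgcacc
AGGTCA was in the windows of 17 of 101 called genes (16.8%) and of 15.5% of the 9605 tested genes with a window, and CACGTG in those of 16 of the 101 (15.8%) and of 11.8% of the 9605. A match is a stretch of letters and not a shown binding site.

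Hsd3b7, which modifies the sterol ring in bile acid synthesis, ranged between 368 and 485 CPM in CSO livers (median 408) and between 714 and 1161 CPM in OO livers (median 820). Every CSO library was below every OO library, and its log2 fold change was -1.07 ± 0.13 (SE; adjusted p = 1.08e-06). The bile salt export pump Abcb11, which moves bile acids into the bile canaliculus, was at 422 to 636 CPM in CSO (median 455) and 875 to 1494 CPM in OO (median 1025). The groups again did not overlap, and the fold change was -1.12 ± 0.14 (adjusted p = 1.97e-06). Chow livers were at 617 to 859 CPM, overlapping CSO at its upper edge, with a median of 692 CPM. Of the 22 tested genes of bile acid synthesis and transport, these 2 fell, against 0.835% of all tested genes, and none rose. The list median was -0.19, against -0.08 for all genes, and -0.03 with library totals, against 0.08. Cyp7a1, the rate-limiting enzyme of the classical pathway, was at 129 to 313 CPM in CSO and 97.1 to 205 CPM in OO, with overlapping groups (0.49 ± 0.47, adjusted p = 0.704). Insig2, an endoplasmic reticulum protein that holds back SREBP processing, was at 82.4 to 178 CPM in CSO (median 131) and 231 to 508 CPM in OO (median 319). It fell without overlap by 1.45 ± 0.23 (SE, adjusted p = 0.000308). It was the 1 called gene among 25 of cholesterol synthesis and uptake, against 0.835% of all tested genes that fell. With library totals 1 of the 25 also fell.

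PPAR alpha target genes were the list with the most rises: 5 of 27 rose in CSO, among them Cyp4a14, Cyp4a12a, Acot1 and Pex11a, and none fell, against 0.251% of all tested genes that rose. The list median was 0.39, against -0.08 for all genes, and 23 of the 27 fold changes were positive. Pex11a, which drives peroxisome division, was at 140 to 243 CPM in CSO (median 204) and 69.3 to 129 CPM in OO (median 81.1). No CSO library overlapped an OO library (1.18 ± 0.21, adjusted p = 0.001), and chow livers were at 88.4 to 194 CPM.

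Cyp4a14, a fatty acid omega-hydroxylase, was at 217 to 888 CPM in CSO (median 636) and 3.22 to 180 CPM in OO (median 59.3). The groups did not overlap and the fold change was 2.996 ± 0.70 (adjusted p = 0.0406); chow livers were at 284 to 530 CPM and SFO livers at 3.10 to 31.8 CPM, so the low levels were in OO and SFO. Its neighbour Cyp4a10 had 190 to 297 CPM in CSO and 10.1 to 218 CPM in OO, and did not pass (1.18 ± 0.48, adjusted p = 0.239). Cyp4a12a, a hydroxylase higher in male mice, was at 348 to 555 CPM in CSO and 127 to 397 CPM in OO (1.01 ± 0.20, adjusted p = 0.00625). Cyp4a12b, named after its values were seen, was at 109 to 153 CPM in CSO and 41.2 to 81.5 CPM in OO without overlap (0.95 ± 0.23, adjusted p = 0.0204). The thioesterase gene Acot1 was at 24.8 to 75.0 CPM in CSO (median 63.9) and 0.806 to 40.0 CPM in OO (median 8.69), with overlap (2.01 ± 0.50, adjusted p = 0.0353). These families share sequence, so the split of their counts between members is uncertain. Cpt1a, the gate of fatty acids into mitochondria, did not pass (0.24 ± 0.13, adjusted p = 0.433). Of 21 genes of mitochondrial fatty acid oxidation none passed, with a median of 0.16, and 1 rose with library totals. Of 19 peroxisomal genes 2 rose, Pex11a among them, and 1 fell, against 0.251% and 0.835% of all tested genes. Library totals gave 3 rises and no fall among the 19. The gene that fell was Crot, which hands shortened fatty acids to mitochondria. It was at 462 to 648 CPM in CSO and 559 to 998 CPM in OO (-0.55 ± 0.13, adjusted p = 0.0268). Its call was lost with library totals, with only the CSO and OO libraries, with the clock score as a covariate (adjusted p = 0.294) and without CSO 1 and OO 3.
Leaving out 1 library ended the call for Cyp4a14 (without CSO 1, 2, 4, 5 or 6 or OO 4 or 6, adjusted p 0.0572 to 0.0860), for Acot1 (without CSO 1, 4, 5 or 6 or OO 2 or 6, adjusted p 0.0613 to 0.0753), for Crot (without CSO 1, 3 or 4 or OO 1 or 4, adjusted p 0.0600 to 0.0905) and for Cyp4a12b (without CSO 3 or 6, adjusted p 0.0626 and 0.0709). The list of PPAR alpha targets held between 2 calls (with the clock score as a covariate) and 6.

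**Figure D3:**
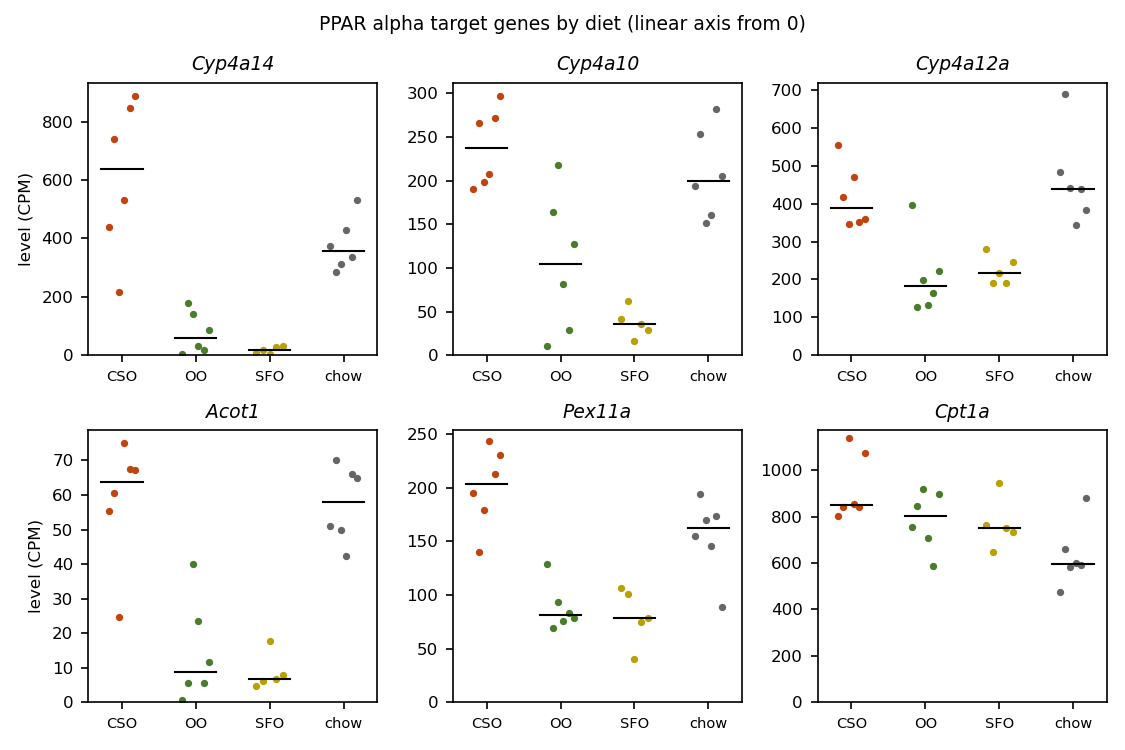
Levels (CPM, linear axis from 0) of 6 PPAR alpha target genes by diet. Points are single libraries and bars are medians. CSO points lie above every OO point for Cyp4a14 and Pex11a and overlap the OO points for the other 4 genes.

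Of 17 fatty acid synthesis genes 1 fell, Mlxipl, against 0.835% of all tested genes, and none rose. With library totals none passed (adjusted p = 0.155 for Mlxipl). The list median was -0.44 and 14 of the 17 fold changes were negative. Mlxipl, which encodes ChREBP, was at 176 to 288 CPM in CSO (median 197) and 233 to 460 CPM in OO (median 392). The groups overlapped at the edge and the fold change was -0.78 ± 0.20 (adjusted p = 0.0378). Mid1ip1, which activates acetyl-CoA carboxylase and was named after its values were seen, was at 43.3 to 90.2 CPM in CSO and 78.5 to 222 CPM in OO (-1.18 ± 0.31, adjusted p = 0.0467). Scd1, the stearoyl-CoA desaturase, ranged between 5346 and 11993 CPM in CSO (median 7107) and between 6908 and 19475 CPM in OO (median 14448), and with a fold change of -0.89 ± 0.25 it did not pass (adjusted p = 0.0915). Fasn, the fatty acid synthase, had one of -0.97 ± 0.28 (adjusted p = 0.0946) and Srebf1 one of -0.44 ± 0.23 (adjusted p = 0.379).
The calls for Mlxipl (without CSO 1, 3, 5 or 6 or OO 2, 3 or 4) and Mid1ip1 (without any CSO library but CSO 2, or without OO 1, 3, 4 or 5) were lost when 1 library was left out, with adjusted p of 0.0704 to 0.101 and 0.0534 to 0.119.

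Among the elongases, Elovl5, which lengthens polyunsaturated fatty acids, was at 805 to 1149 CPM in CSO (median 1069) and 1300 to 1648 CPM in OO (median 1577). It fell without overlap by 0.58 ± 0.13 (SE, adjusted p = 0.0177, and 0.0723 without CSO 1). Elovl5 was the 1 called gene of 12 in polyunsaturated fatty acid synthesis, against 0.835% of all tested genes that fell. With library totals none of the 12 fell and 1 rose. The desaturase genes did not pass: Fads1 had a fold change of -0.06 ± 0.13 (adjusted p = 0.89) and Fads2 one of 0.41 ± 0.15 (adjusted p = 0.166). Elovl3, an elongase of very long chains, was at 38.8 to 117 CPM in CSO and 136 to 316 CPM in OO without overlap (-1.45 ± 0.35, adjusted p = 0.0496), and its call was lost without any of CSO 1, 3, 4, 5 or 6 or OO 1, 2, 3 or 4 (adjusted p 0.0551 to 0.0997).

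Gpat3 rose and Chka fell in CSO livers. Gpat3, a glycerol-3-phosphate acyltransferase that starts triglyceride synthesis, was at 10.6 to 30.9 CPM in CSO (median 19.5) and 0.101 to 3.204 CPM in OO (median 1.09). It rose without overlap (4.08 ± 0.80, adjusted p = 0.00297), and chow livers were at 1.22 to 12.3 CPM. Gpat3 was the 1 called gene of 23 for triglyceride synthesis and lipid droplets, against 0.251% of all tested genes that rose. Library totals gave 2 rises in this list and voom gave 3. The droplet coat gene Plin2 had a fold change of -0.12 ± 0.12 (adjusted p = 0.731). Chka, choline kinase, the first step of phosphatidylcholine synthesis from choline, was at 4.89 to 14.8 CPM in CSO (median 10.7) and 11.2 to 80.1 CPM in OO (median 43.3). The groups overlapped at their edges, and it fell by 2.08 ± 0.42 (SE; adjusted p = 0.00458). Both passed without each library, but not with the clock score as a covariate (adjusted p 0.0577 for Gpat3 and 0.188 for Chka).

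Of 23 lipoprotein genes, 2 fell, against 0.835% of all tested genes, and none rose. The list median was -0.16 with TMM scaling and 0.01 with library totals, below that of all genes by 0.08 and 0.07. Angptl8, a hepatokine that restrains lipoprotein lipase, was at 5.56 to 19.8 CPM in CSO (median 9.23) and 14.93 to 112 CPM in OO (median 45.3). The fold change was -2.19 ± 0.45 (adjusted p = 0.00577), and with the clock score as a covariate the adjusted p was 0.160. Lrp1, a receptor for lipoprotein remnants, was at 969 to 1250 CPM in CSO and 1302 to 1833 CPM in OO without overlap (-0.49 ± 0.12, adjusted p = 0.0349; lost without CSO 3, 4, 5 or 6 or OO 1 or 3, adjusted p 0.0526 to 0.0892). Apoa4, which responds to dietary fat, had a fold change of -0.48 ± 0.27 (adjusted p = 0.433), and its chow livers were at 127 to 202 CPM, against 510 to 747 CPM in CSO and 507 to 1609 CPM in OO.

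In sulfur amino acid metabolism, 3 of 19 genes of methionine and sulfur amino acids (Cbs, Cdo1 and Gclc) fell, against 0.835% of all tested genes, and none rose. With library totals 2 fell. Cdo1, cysteine dioxygenase, which commits cysteine to taurine and sulfate, was at 918 to 1584 CPM in CSO (median 1235) and 1783 to 2486 CPM in OO (median 1929). Every CSO library was below every OO library (-0.73 ± 0.12, adjusted p = 0.000218), and chow livers were at 1222 to 1626 CPM. Gclc, the catalytic subunit of the enzyme that limits glutathione synthesis, was at 231 to 356 CPM in CSO (median 265) and 417 to 707 CPM in OO (median 587). It fell without overlap by 1.05 ± 0.15 (SE; adjusted p = 1.25e-05). SFO livers, at 213 to 299 CPM, were near the CSO range and chow livers, at 423 to 602 CPM, in the OO range. Cbs, which makes cystathionine from homocysteine, was at 271 to 651 CPM in CSO and 479 to 1019 CPM in OO (-0.72 ± 0.17, adjusted p = 0.0268), and its call was lost without CSO 1, 3, 4 or 6 or OO 1 (adjusted p 0.0738 to 0.0839). Gclc is also 1 of 22 tested targets of NRF2, the factor of the antioxidant response. Of these it alone fell and Gsta2 alone rose, against 0.835% and 0.251% of all tested genes. Gsta2, a glutathione transferase whose relatives share its sequence, was at 0.210 to 31.2 CPM in CSO and 0 to 1.34 CPM in OO, 35 counts in all OO libraries. The fold change was 3.74 ± 0.88 (adjusted p = 0.0196, and 0.114 without CSO 5). Chow livers were at 14.7 to 35.2 CPM and SFO livers at 0.190 to 5.46 CPM. Its call was also lost with voom, with only the CSO and OO libraries, with the clock score as a covariate (adjusted p = 0.180) and without CSO 1 and OO 3.

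Of 33 genes of the urea cycle and amino acid breakdown, 1 rose and 3 fell, against 0.251% and 0.835% of all tested genes. With library totals 1 rose and 1 fell. Gldc, of the glycine cleavage system, was at 59.3 to 148 CPM in CSO (median 88.0) and 143 to 230 CPM in OO (median 216), overlapping at the edge (-1.11 ± 0.20, adjusted p = 0.000653). Glud1, glutamate dehydrogenase, was at 1026 to 1293 CPM in CSO (median 1230) and 1425 to 1993 CPM in OO (median 1786) without overlap (-0.54 ± 0.11, adjusted p = 0.00791). Arg1, the arginase of the urea cycle, was the gene that rose, at 1146 to 1744 CPM in CSO and 827 to 1091 CPM in OO (0.45 ± 0.12, adjusted p = 0.0412), and Haao, of tryptophan breakdown, fell by 0.53 ± 0.14 (SE; adjusted p = 0.0482). The calls for Arg1 (without CSO 1, 2, 3 or 5 or OO 1, 2 or 6; adjusted p 0.0593 to 0.125) and Haao (without CSO 1, 2, 3, 4 or 6 or OO 3 or 4; adjusted p 0.0606 to 0.165) were lost when 1 library was left out. With the clock score as a covariate Gldc (adjusted p = 0.0985) and Glud1 (adjusted p = 0.197) did not pass, nor did Glud1 with library totals (adjusted p = 0.0636).

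Ppp1r3c and Ugp2, of glycogen synthesis, fell in CSO livers. Ppp1r3c, which brings protein phosphatase 1 to glycogen and promotes its synthesis, was at 7.27 to 26.5 CPM in CSO (median 9.23) and 20.4 to 231 CPM in OO (median 81.1). CSO 4 was the high library of its group and alone reached above the lowest OO library, and the fold change was -2.98 ± 0.47 (adjusted p = 0.000308). Ugp2, which makes the UDP-glucose that glycogen is built from, was at 267 to 334 CPM in CSO (median 309) and 408 to 885 CPM in OO (median 473). It fell without overlap by 0.78 ± 0.15 (SE; adjusted p = 0.0028; 0.0911 with the clock score as a covariate), and chow and SFO livers, at 265 to 357 and 300.2 to 390 CPM, were near the CSO range. These were the 2 calls among 22 genes of glycolysis and glycogen, against 0.835% of all tested genes that fell. With library totals 2 of the 22 fell and 1 rose. Of 18 genes of gluconeogenesis and the fasting response none passed, while 1 rose with library totals and 1 with voom. Pck1, the gluconeogenic enzyme, was at 2982 to 4156 CPM in CSO and 1606 to 3034 CPM in OO (0.68 ± 0.20, adjusted p = 0.0962).

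Usp2 rose and Nr1d1 fell in CSO livers, and the libraries differed in a clock score. The score sets the mean level of Ciart, Dbp, Per2, Per3 and Tef over that of Arntl, Clock, Nfil3 and Npas2, which peak at the opposite time, as a log2 ratio. It was 1.958 to 3.147 in CSO and -1.12 to 2.54 in OO. All CSO libraries were high and the OO libraries were spread, with OO 2 alone in the CSO range. Usp2, a deubiquitinase with strong daily rhythm, was at 64.3 to 126 CPM in CSO (median 76.3) and 2.62 to 18.8 CPM in OO (median 3.33). It rose without overlap (3.82 ± 0.71, adjusted p = 0.00841), and chow livers were at 15.8 to 78.2 CPM. Nr1d1, the repressor REV-ERB alpha, was at 46.1 to 92.0 CPM in CSO (median 57.2) and 76.6 to 216 CPM in OO (median 174), and fell by 1.38 ± 0.24 (SE; adjusted p = 0.000538). Among the 14 genes of the E-box and D-box phase these were the 2 called, in opposite directions. Of all tested genes 0.251% rose and 0.835% fell. The list median was 0.68. None of the 7 tested genes of the opposite phase passed (median -0.34, and 0.44 with voom, where the median of all genes was 0.14).

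With the clock score as a covariate, 33 genes passed the test, 7 higher and 26 lower, and 26 of them were among the 130. Of 63 named genes that passed without the covariate, 42 did not pass with it. All 130 kept their sign, with a median ratio of the fold change to that without the covariate of 0.882 and of its SE of 1.15. Usp2 no longer passed (adjusted p = 0.227), while Nr1d1 did. The score shares its variation with the diets, and time of sampling is not in the labels, so sampling time and diet cannot be told apart.

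**Figure D4:**
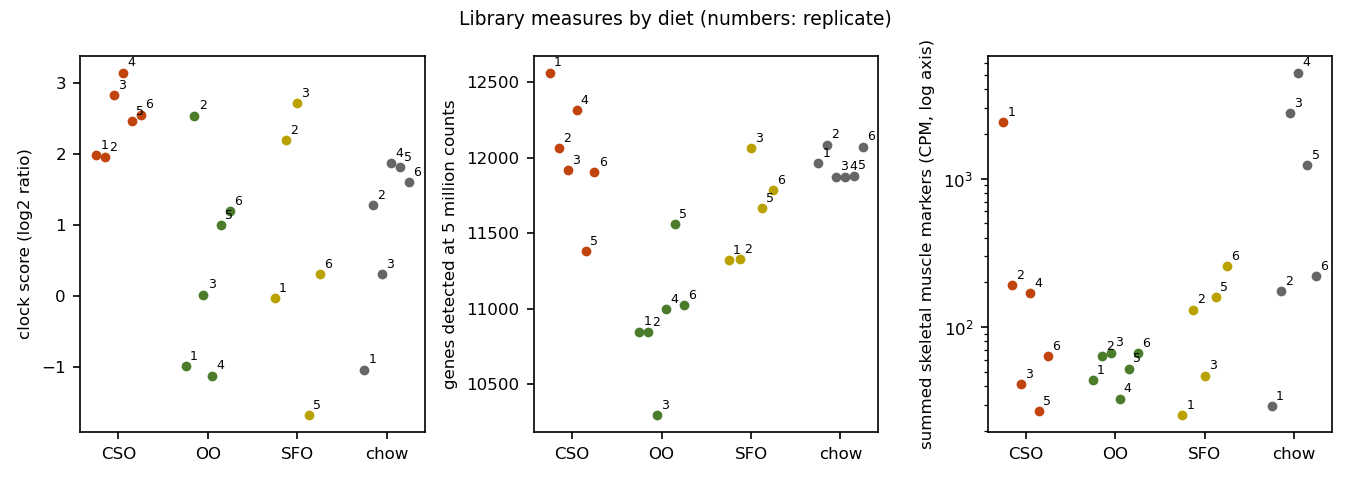
Clock score (log2 ratio), number of genes detected at equal depth and summed level of skeletal muscle markers (CPM, log axis) in each library, by diet, with replicate numbers. CSO clock scores are 1.958 to 3.147 and OO scores -1.12 to 2.54. Every CSO library but CSO 5 detects more genes than every OO library, and CSO 5 is below OO 5 alone. CSO 1 and 3 chow libraries are highest in muscle markers, and CSO 2 and CSO 4 (193 and 169 CPM) also lie above every OO library.

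Coq8a, Atf5, Clpx and Gdf15 fell in CSO livers. Coq8a, a kinase-like protein needed to make coenzyme Q, was at 126 to 221 CPM in CSO (median 180) and 326 to 589 CPM in OO (median 481). No CSO library overlapped an OO library (-1.36 ± 0.18, adjusted p = 3.28e-06), and SFO livers were at 142 to 331 CPM. Atf5, a transcription factor of the mitochondrial unfolded protein response, was at 184 to 305 CPM in CSO (median 254) and 365 to 654 CPM in OO (median 535), also without overlap (-1.08 ± 0.17, adjusted p = 0.000121). Clpx, the unfoldase of a mitochondrial matrix protease, named after its values were seen, was at 75.5 to 114 CPM in CSO and 158 to 275 CPM in OO (-1.24 ± 0.22, adjusted p = 0.000597; 0.120 with the clock score as a covariate). Gdf15, a hormone that cells release under stress, was at 0.243 to 1.99 CPM in CSO (median 1.11) and 0.592 to 52.4 CPM in OO (median 12.7). OO 1 was the highest library and OO 2 alone lay in the CSO range (-3.90 ± 0.96, adjusted p = 0.027), and the call was lost without CSO 1, 3, 4, 5 or 6 or OO 1 (adjusted p 0.0545 to 0.115). Gdf15 and Atf5 were the 2 calls, both falls, among 17 genes of the integrated stress response, against 0.835% of all tested genes. The list median was -0.06, 0.07 with library totals and 0.24 with voom, each near that of all genes (-0.08, 0.08 and 0.14). Of 25 genes of endoplasmic reticulum folding and 16 of cytosolic heat shock none passed. Of 40 respiratory chain genes none passed either, with 31 positive fold changes. Their median was 0.27, against -0.08 for all genes, and 0.24 with voom, against 0.14.

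Slc30a10, which exports manganese from hepatocytes into bile, was at 11.2 to 18.6 CPM in CSO (median 14.6) and 31.3 to 107 CPM in OO (median 66.7). The groups did not overlap, chow livers at 36.7 to 64.5 CPM and SFO livers at 25.9 to 115 CPM were also above every CSO library, and the fold change was -2.24 ± 0.33 (adjusted p = 5.68e-05).

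Retsat rose while Stra6l, Bco2 and Enpp3 fell in CSO livers, and all 4 were picked after their values were seen. Retsat, retinol saturase, was at 509 to 701 CPM in CSO (median 522) and 245 to 475 CPM in OO (median 308). It rose without overlap (0.79 ± 0.15, adjusted p = 0.00121), and chow livers, at 490 to 614 CPM, were near the CSO level. Stra6l, a receptor for retinol-binding protein, was at 57.9 to 107 CPM in CSO (median 85.7) and 151 to 302 CPM in OO (median 196), and fell without overlap (-1.33 ± 0.23, adjusted p = 0.000477). Bco2, which cleaves carotenoids, was at 11.5 to 23.2 CPM in CSO and 12.6 to 150 CPM in OO (-1.63 ± 0.42, adjusted p = 0.0378), and its call was lost without any 1 CSO library or without OO 3 (adjusted p 0.0607 to 0.187; -1.10 without OO 3). Enpp3, an ectonucleotide pyrophosphatase, was at 60.7 to 81.4 CPM in CSO (median 73.8) and 73.4 to 224 CPM in OO (median 180), overlapping at 1 edge (-1.14 ± 0.21, adjusted p = 0.0012).

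Of 27 genes of xenobiotic metabolism, 2 rose and 2 fell, against 0.251% and 0.835% of all tested genes. With library totals 3 rose and none fell. Por, the reductase that gives electrons to all microsomal cytochromes P450, was at 585 to 704 CPM in CSO (median 618) and 176 to 446 CPM in OO (median 242). Every CSO library was above every OO library and above every chow and SFO library, which reached 478 and 410 CPM, and the fold change was 1.28 ± 0.19 (adjusted p = 5.69e-05). Ces1d, a carboxylesterase that also acts on triglycerides, was at 597 to 1007 CPM in CSO and 400.1 to 672 CPM in OO (0.69 ± 0.16, adjusted p = 0.016; lost without CSO 4 or 6, adjusted p 0.0753 and 0.0646). Cyp2c29 was at 386 to 619 CPM in CSO and 566 to 972 CPM in OO (-0.60 ± 0.15, adjusted p = 0.0299), while chow livers stood above both at 1115 to 1454 CPM. Cyp1a2, a pericentral enzyme, was at 396 to 634 CPM in CSO and 427 to 1286 CPM in OO (-0.79 ± 0.19, adjusted p = 0.0312). Both falls were lost when 1 library was left out, Cyp2c29 without CSO 1, 2, 3, 4 or 6 or OO 2 or 4 (adjusted p 0.0535 to 0.0887) and Cyp1a2 without CSO 1, 2, 4 or 6 or OO 1, 3 or 4 (adjusted p 0.0671 to 0.0929), and both with library totals (adjusted p = 0.118 for Cyp2c29 and 0.130 for Cyp1a2).

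Growth hormone-dependent and sex-biased genes gave 1 rise (Cyp4a12a) and 2 falls (Elovl3 and Hsd3b5) among 21, against 0.251% and 0.835% of all tested genes. With library totals 2 rose and 1 fell. Hsd3b5, a steroid dehydrogenase higher in males, was at 140 to 205 CPM in CSO (median 175) and 165 to 569 CPM in OO (median 358). The groups overlapped at the low end of OO, and the fold change was -1.11 ± 0.21 (adjusted p = 0.0028; 0.191 with the clock score as a covariate).

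Plasma protein genes had mostly negative fold changes, and few passed the test. Of 25 coagulation genes 2 fell, Fgg and Serpinf2, against 0.835% of all tested genes, and 22 had negative fold changes, with a median of -0.30; of 25 complement genes none passed, 22 were negative and the median was -0.21. Relative to the median of all genes, the coagulation list was lower by 0.22 with TMM scaling and by 0.21 with library totals, where none of its genes passed. Fgg, a fibrinogen chain, was at 3242 to 4458 CPM in CSO (median 3745) and 4594 to 6760 CPM in OO (median 5329) without overlap (-0.52 ± 0.12, adjusted p = 0.0154). Serpinf2, the plasmin inhibitor, was at 629 to 857 CPM in CSO and 826 to 1564 CPM in OO (-0.59 ± 0.13, adjusted p = 0.0112). Trf, the iron carrier transferrin, was at 12308 to 16000 CPM in CSO and 16489 to 21245 CPM in OO without overlap (-0.38 ± 0.10, adjusted p = 0.0312). Fn1, fibronectin, was at 1710 to 2409 CPM in CSO and 2472 to 3076 CPM in OO without overlap (-0.47 ± 0.12, adjusted p = 0.0302). Pigr, which carries immunoglobulins into bile, was at 1039 to 1286 CPM in CSO and 1310 to 1982 CPM in OO (-0.43 ± 0.11, adjusted p = 0.0491). Apart from Serpinf2, these calls were lost when 1 library was left out: Fgg without CSO 4 or 6 or OO 1 (adjusted p 0.0506 to 0.0587), Trf without CSO 1, 4 or 6 or OO 1 or 3 (0.0752 to 0.104), Fn1 without CSO 1, 2, 5 or 6 or OO 1 or 3 (0.0525 to 0.0748) and Pigr without any CSO library or OO 1, 3 or 6 (0.0600 to 0.126). The Serpinf2 call was lost with library totals, without the libraries with over 100 CPM of the muscle marker Acta1, and without CSO 1 and OO 3. Those of Fgg, Trf, Fn1 and Pigr were lost in these settings and with the clock score as a covariate. In the opposite direction but without a call, 43 of 51 cytosolic ribosomal protein genes had positive fold changes, against 5345 of all 11971 tested genes. Their median was 0.32, against -0.08 for all genes, and 0.22 with voom, against 0.14.

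**Figure D5:**
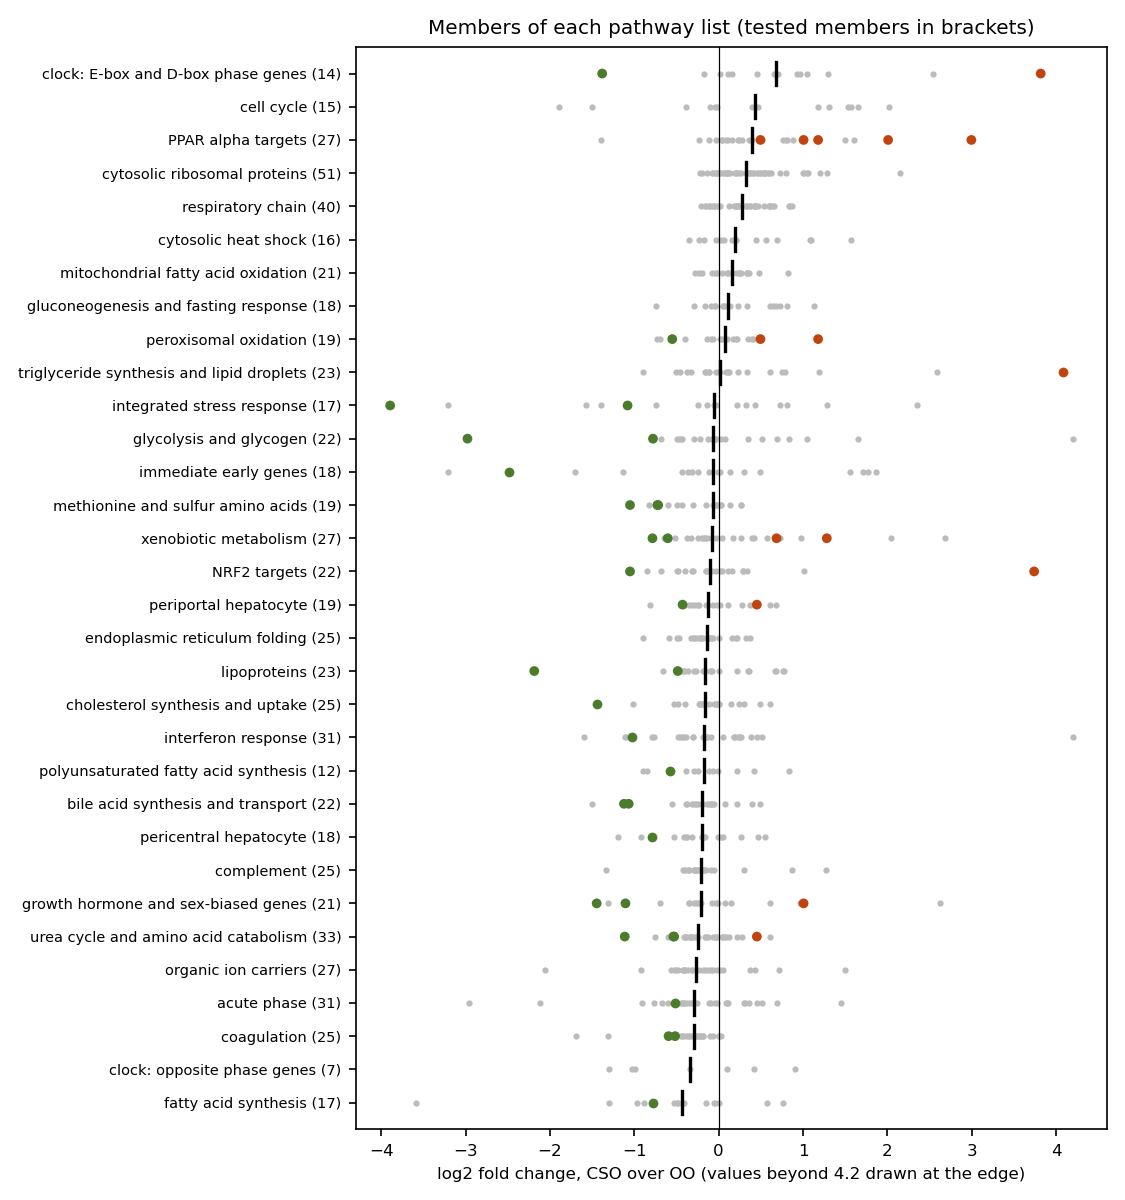
Log2 fold change, CSO over OO, of the tested members of each pathway list, with list medians as black bars and lists ordered by median. Orange-red and green points mark genes that rose and fell in CSO livers, grey points mark genes that did not pass the test, and values beyond the axis are drawn at its edge. PPAR alpha targets have a median of 0.39 and fatty acid synthesis genes one of -0.44.

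In the inflammatory lists, 1 of 31 acute phase genes (Fgg) and 1 of 31 interferon genes fell, against 0.835% of all tested genes, and none rose. Neither list held a call with library totals. Irgm1, an interferon-induced GTPase, was at 43.8 to 76.5 CPM in CSO (median 49.9) and 58.9 to 154 CPM in OO (median 114). The groups overlapped (-1.03 ± 0.25, adjusted p = 0.0218), chow livers were at 37.2 to 55.5 CPM, and the call was lost without CSO 1, 4 or 6 or OO 3 (adjusted p 0.0528 to 0.0736).

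Cldn1, Tjp3 and Gjb1 fell in CSO livers; all 3 were named after their values were seen, and other genes of cell junctions were not counted. Cldn1, a claudin of the tight junction that seals bile canaliculi, was at 22.8 to 65.9 CPM in CSO (median 36.4) and 74.9 to 186 CPM in OO (median 116). It did not overlap (-1.61 ± 0.27, adjusted p = 0.000406; 0.0951 with the clock score as a covariate). Tjp3, a tight junction scaffold, had a fold change of -1.47 ± 0.35 (adjusted p = 0.0218, and 0.0571 to 0.0723 without CSO 1, 3 or 5 or OO 3 or 4). Gjb1, the connexin of hepatocyte gap junctions, had one of -0.51 ± 0.12 (adjusted p = 0.0184, and 0.0613 and 0.0669 without CSO 1 or 6). The calls for Tjp3 and Gjb1 were also lost with the clock score as a covariate (adjusted p 0.162 and 0.193) and with library totals. Both were lost with only the CSO and OO libraries, without the libraries with over 100 CPM of the muscle marker Acta1, and without CSO 1 and OO 3. Tjp3 was lost with voom as well.

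Further genes were named for the size of their change among genes with a mean of at least 1 log2 CPM. Among the rises, Ucp2, a mitochondrial carrier, was at 17.0 to 122 CPM in CSO (median 51.2) and 3.74 to 35.3 CPM in OO (median 9.49), overlapping (2.13 ± 0.47, adjusted p = 0.013; 0.0702 without CSO 4). Eif4ebp3, an inhibitor of translation initiation (2.04 ± 0.48), and Nmrk1, nicotinamide riboside kinase (1.71 ± 0.40), did not overlap, with adjusted p of 0.0198 and 0.0193. Tgds (1.90 ± 0.43) and Rin2, which acts on endosomal Rab proteins (1.92 ± 0.49), did not overlap either, with adjusted p of 0.0154 and 0.0378. Nmrk1 passed without each library, but not with only the CSO and OO libraries (adjusted p = 0.0609), with the genes and factors of all libraries as well (0.0602), with the clock score (0.180), without the libraries high in Acta1 (0.0568) or without CSO 1 and OO 3 (0.0630). Eif4ebp3 (adjusted p = 0.0800) and Tgds (adjusted p = 0.0523) did not pass without CSO 5, and Rin2 did not pass without CSO 1, 3, 4, 5 or 6 or OO 1, 3 or 6 (adjusted p 0.0543 to 0.0876). With voom and without the libraries high in Acta1, Eif4ebp3, Tgds and Rin2 did not pass. Nor did they with only the CSO and OO libraries, whichever genes and factors were used. Rin2 and Ucp2 were lost with the clock score (adjusted p 0.182 and 0.101) and without CSO 1 and OO 3, and Ucp2 also with voom.

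Among the falls, Avpr1a, the hepatocyte vasopressin receptor, was at 6.15 to 20.3 CPM in CSO (median 15.1) and 15.9 to 137 CPM in OO (median 55.3), and passed without each library (-2.13 ± 0.43, adjusted p = 0.00437), but not with the clock score as a covariate (0.127). Ccn1, an immediate early matrix protein, was at 4.67 to 13.6 CPM in CSO and 4.42 to 95.1 CPM in OO (-2.49 ± 0.56, adjusted p = 0.0177; lost without CSO 1, 5 or 6, adjusted p 0.0537 to 0.0587). Rnd1, a small GTPase, was at 0.889 to 9.73 CPM in CSO and 6.63 to 133 CPM in OO (-2.77 ± 0.72, adjusted p = 0.0406). OO 3 was the library at 133 CPM, and without it the fold change was -1.27 (adjusted p = 0.400); the call was also lost without CSO 1, 2, 4, 5 or 6, with a lowest adjusted p of 0.0768. Adamts7, a metalloprotease (-3.14 ± 0.82, adjusted p = 0.0396), and Commd7 (-2.13 ± 0.55, adjusted p = 0.0396) were each lost without 7 of the 12 libraries, Adamts7 without CSO 1, 3, 4, 5 or 6 or OO 1 or 6 (adjusted p 0.0543 to 0.171) and Commd7 without CSO 1, 2, 4, 5 or 6 or OO 2 or 4 (0.0576 to 0.0979).

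Markers of other liver cells did not pass the test: 0 of 14 macrophage, 0 of 12 endothelial, 0 of 13 stellate and matrix and 0 of 5 bile duct markers. An unadjusted p under 0.05 was found for 2, 4, 1 and 0 of them, against 1764 of all 11971 tested genes. Single markers were tested for T and NK cells (Cd4, 2.95 ± 1.32, adjusted p = 0.273) and B cells (Cd79b, 6.51 ± 1.97, adjusted p = 0.0844). Both had an unadjusted p under 0.05 but few counts, 324 and 86 in CSO and 35 and 0 in OO. Those of neutrophils (Csf3r, -1.66 ± 1.39, adjusted p = 0.647) and erythroid cells (Alas2, -0.14 ± 0.21, adjusted p = 0.819) did not pass either. Macrophage markers summed to 117 to 328 CPM in CSO and 133 to 441 CPM in OO, and endothelial markers to 192 to 365 CPM in CSO and 160 to 523 CPM in OO. In whole tissue, fewer cells of a type and less RNA per cell cannot be told apart.
Skeletal muscle markers summed to 27.1 to 2398 CPM in CSO and 33.0 to 67.4 CPM in OO. The highest value was CSO 1, and CSO 2 (193 CPM) and CSO 4 (169 CPM) were also above every OO library. Of 20 tested muscle markers 1 rose, Myot, a muscle filament protein, against 0.251% of all tested genes. Myot was at 0 to 18.5 CPM in CSO and 0 to 0.118 CPM in OO, with 18.5 CPM in CSO 1 alone. Among the 20 markers, 19 fold changes were positive, 17 had an unadjusted p under 0.05, and the list median was 5.47. DESeq2's Wald test called 13 of them. The fold change of Myot was 5.96 ± 1.59 (adjusted p = 0.0491). Without CSO 1 it was too low to be tested, and its call was lost without CSO 6 or without OO 1, 2, 3, 4 or 6 (adjusted p 0.0540 to 0.0982). When CSO 1 and the 3 chow libraries that held more than 100 CPM of Acta1 were dropped, 40 genes passed the test, 10 higher and 30 lower, all of them among the 130. The part of muscle RNA in the other results was not tested further.

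CSO libraries detected more genes at equal depth. After thinning every library to 5000000 counts, 12026 ± 404 of the table's 13686 genes had a count in CSO and 10927 ± 407 in OO (SD, 6 libraries each). The difference was 1099 genes (exact two-sided permutation test, p = 0.00433). Genes that were filtered out before deposit could not be counted. The groups overlapped in CSO 5, with 11382 genes, and OO 5, with 11559, and OO 3 had the fewest, 10293. Leaving out OO 3 gave a difference of 972 genes (exact p = 0.00649), and TMM factors, which move with this number, were higher in CSO.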

How the data were processed

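The authors deposited raw counts per gene for 23 libraries. Per the submitters' processing notes, the tools were Trimmomatic, STAR 2.7.1a and HTSeq 0.9.1 with build mm39, and DESeq2 and DESeq. No source used here states the strand setting, so overlapping and antisense genes cannot be told apart. The labels name 24 samples; SFO 4 has no column and was not analysed here (the submitters describe it as an outlier). The table is named as raw filtered counts. It holds 13686 genes, the smallest gene total is 51 counts, and no column was left unused. Members, gene lists and named genes were chosen with earlier results of these data known, so no list is independent evidence.

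From these counts, R 4.3.3 was used with edgeR 4.0.16 (filterByExpr, which kept 11971 genes; TMM; robust quasi-likelihood F test with diet as the only term; Benjamini-Hochberg over all tested genes, threshold 0.05), limma 3.58.1 and DESeq2 1.42.0, after a test on simulated data. Depth was 7907040 to 13973380 counts per CSO or OO library. Symbols of 13681 genes matched RefSeq, whose promoter windows are on another build (GRCm38.p6) than the counts. Figures used Python 3.11.15 and matplotlib 3.10.9.

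Named were the 10 largest rises and the 10 largest falls whose log2 CPM averaged 1 or more, with every CSO library on the same side of the OO mean, without predicted genes; the 10 smallest p; the 10 most abundant called genes; up to 4 called members per list, or the most abundant member where none was called; and 15 lipid genes. Some of these genes are not reported here. A further 10 were chosen after their values were seen.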

Additional observations from a re-analysis of the deposited data

Results flagged for a closer look

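Within a group of 6 libraries, a library was listed where its gap to the nearest other library, on the log2 scale for genes, was larger than Dixon's 95% critical value allows; 13 of 199 groups of values were listed, and chance alone lists about 1 in 20. In CSO, Acot1 was low in CSO 3 (24.8 CPM, others 55.3 to 75.0), Ppp1r3c high in CSO 4 (26.5 CPM, others 7.27 to 11.6), Cd4 low in CSO 5 (0 CPM, others 2.64 to 7.42) and Myot high in CSO 1 (18.5 CPM, others 0 to 0.26). In OO, Usp2 was high in OO 4 (18.8 CPM, others 2.62 to 4.13), Ccn1 low in OO 6 (4.42 CPM, others 31.3 to 95.1), Ces1d high in OO 2 (672 CPM, others 400.1 to 485) and Fads2 high in OO 2 (2229 CPM, others 1388 to 1518). OO 3 was listed 5 times: Rnd1 (133 CPM, others 6.63 to 15.5), Ugp2 (885 CPM, others 408 to 513) and Haao (929 CPM, others 528 to 587) were high, Alas2 was low (62.3 CPM, others 139 to 212), and the first principal component score was 169 (others -3.18 to 60.9). No cause was tested.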

How the results depend on the processing

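Of the genes that differ between CSO and OO, the 130 (30 higher, 100 lower) became 83 (49 and 34) with library totals, 413 (177 and 236) with DESeq2's Wald test, 79 (17 and 62) with only the CSO and OO libraries, 83 (18 and 65) with only these libraries but the genes and TMM factors of all, 33 (7 and 26) with the clock score as a covariate, 40 (10 and 30) without the libraries with Acta1 over 100 CPM, 57 (17 and 40) without CSO 1 and OO 3, and 76 (22 and 54) with a log2 fold change of at least 1 as well. Leaving out each library gave 62 to 260 genes, 15 to 63 higher and 44 to 197 lower. The other settings gave 99 to 136. The causes were not tested, except that fewer libraries were fitted where some were left out. The replicate number as a block gave 122 genes (38 and 84), 104 of them among the 130; the numbers do not pair the libraries (correlations of same-numbered deviations -0.03 to 0.01), and no CSO library correlated best with its own number. Of 63 named genes that passed the test, 29 passed without each of the 12 libraries. The difference in detected genes was 972 to 1227 in all alternatives and kept its call. The settings with only the CSO and OO libraries that drop OO 3, or keep all libraries' genes and factors, were added after the data were seen.

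Values that reversed all belong to genes that did not pass the test, and the cause was not tested. With library totals, log2 fold changes became 0.0421 (P4hb), 0.134 (Hsp90ab1), 0.0628 (Atp5a1), 0.0818 (Rpl4), 0.0176 (Ptprb), 0.00469 (Alas2), 0.0953 (Fads1) and 0.0439 (Plin2). With voom, Hsp90ab1 became 0.00894. With the clock score, they became 0.0224 (P4hb), 0.266 (Hsp90ab1), 0.127 (Clec4f), 0.244 (Ptprb), -0.248 (Fabp2) and -0.444 (Cyp7a1). Without the Acta1 libraries, Fads1 became 0.0062; without CSO 1 and OO 3, Ptprb became 0.0262 and Fads1 0.0722; with only the CSO and OO libraries and without OO 3, Ptprb became 0.00393 and Fads1 0.00489. Leaving out each library gave -0.0803 to 0.106 (Hsp90ab1), -0.125 to 0.00509 (Rpl4), -0.275 to 0.0409 (Ptprb), -1.95 to 0.772 (Csf3r) and -0.156 to 0.00873 (Fads1).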
